A study of Homo sapiens with 6 samples.

Results

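NF-kB is a dimeric transcription factor built from 5 related subunits, encoded by NFKB1, NFKB2, REL, RELA and RELB. In resting cells the dimers are held in the cytoplasm by IkB proteins such as IkB-alpha, the product of NFKBIA, and by the long precursors that NFKB1 and NFKB2 encode. The ubiquitin-editing enzyme TNFAIP3, better known as A20, and its partners TNIP1, TNIP2 and TNIP3 (the ABIN proteins) switch the signal off upstream of IkB. Several of these genes are themselves induced by NF-kB and so form its feedback loop. In breast cancer cells of the basal type this factor drives cytokine, survival and invasion genes.

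The 10 genes described here are the 5 subunits and the 5 inhibitors NFKBIA, TNFAIP3, TNIP1, TNIP2 and TNIP3, taken by symbol from a table of 16570 genes, and all 10 were found. They were measured by RNA-seq in MDA-MB-231BR (BR) cells, a brain-seeking derivative of the human triple-negative line MDA-MB-231. The 3 BR-shCON samples carried a control vector and the 3 BR-shSPANXB1 samples a lentiviral shRNA against SPANXB1, a cancer-testis antigen. Both were stable lines selected with puromycin and grown in DMEM with 10% FBS and 1% penicillin-streptomycin; the methods of the study add G418 to the medium of BR cells. A single shRNA sequence was used, so an effect of that sequence on other genes and an effect of SPANXB1 loss cannot be told apart. SPANXB1 was at 445, 563 and 515 FPKM (fragments scaled for transcript length and sequencing depth) in the BR-shCON samples. It was at 232, 260 and 248 FPKM after knockdown, so its transcript was reduced and not removed. The samples held 16294457 to 16666161 estimated counts each. The markers listed for MDA-MB-231 were the mesenchymal VIM and FN1, the surface receptor CD44 and the epithelial keratin KRT18. Of these, 4 of 4 were at 1 FPKM or more in every sample. They summed to 2632 to 2712 FPKM in BR-shCON and 2713 to 2914 in BR-shSPANXB1 cells. Most of the BR-shCON sum was VIM (mean 2187 FPKM), while FN1 had a mean of 24.05 FPKM there. The luminal markers ESR1, PGR, GATA3 and CDH1 were under the mean of 1 FPKM at which genes were tested, and 2 of 6 luminal markers, EPCAM and ERBB2, were at 1 FPKM or more in every sample, the list summing to 21.4 to 24.1 and 21.1 to 22.7 FPKM. Of 8 leukocyte markers 1, the lysosomal CD68, reached 1 FPKM in every sample (sums of 76.4 to 78.8 and 65.7 to 70.7 FPKM), and the pan-leukocyte PTPRC was at 0.06 FPKM or less in every sample. EPCAM (-0.35, adjusted p = 0.0305) and CD68 (-0.21, adjusted p = 0.00128) fell by edgeR's test on the log2 scale, and their part in the results below was not tested.

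The promoter stretches of the members are shown first, because they mark which of these genes hold the letters of an NF-kB site next to an annotated start. The 250 bases before each RefSeq start (GRCh38.p14) were searched on both strands for the NF-kB consensus, the kappa B site. The windows covered 9 members, all but RELB. Of these 9 genes 7 held a match in at least 1 window, against 11.8% of all 27305 genes, and 9 of their 16 windows did, against 9.96% of all 35116 windows. The stretches of 30 bases below are given 5′ to 3′ along the gene, with the matching bases in capitals.
TNIP3, chr4:121227526-121227555, minus strand: tcttaaaaaaGGGGTTTCCCtgtgtatggg
TNIP3, chr4:121164363-121164392, minus strand: gagacatcctGGGAAATCCCtatttggaag
NFKB2, chr10:102394461-102394490, plus strand: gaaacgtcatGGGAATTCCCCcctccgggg
NFKB2, chr10:102395674-102395703, plus strand: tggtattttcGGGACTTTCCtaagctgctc
NFKB1, chr4:102501300-102501329, plus strand: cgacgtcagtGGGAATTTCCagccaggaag
NFKBIA, chr14:35404811-35404840, minus strand: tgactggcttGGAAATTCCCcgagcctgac
TNFAIP3, chr6:137867188-137867217, plus strand: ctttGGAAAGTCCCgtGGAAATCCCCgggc
TNIP1, chr5:151081057-151081086, minus strand: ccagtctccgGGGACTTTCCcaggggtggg
REL, chr2:60881517-60881546, plus strand: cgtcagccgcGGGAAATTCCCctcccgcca

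The matches of TNIP3 began 62 and 61 bases before 2 separate starts, that of NFKB1 49 bases, that of NFKBIA 81, that of TNIP1 42 and that of REL 47 bases before its start. TNFAIP3 held a pair of matches, beginning 67 and 55 bases before the start. NFKB2 held the most, beginning 107, 106 (overlapping the first) and 78 bases before one start and 176 and 21 bases before another. The stretches at 107 and 21 bases are shown, as the farthest from the first start and the nearest to the other. In REL 2 matches overlap by all but 1 base. In RELA and TNIP2 the letters were not found in these windows. Members with a match include NFKB2, which rose, NFKB1 and TNIP3, which fell, and REL and TNFAIP3, which did not pass the test. In GENCODE v29, exons of the same gene overlap the stretches shown for REL, NFKB1, TNIP1, TNFAIP3 and NFKB2. Bases before the RefSeq start can thus lie within another annotated transcript of the gene. Which starts these cells used was not measured here. A match is a run of letters and does not show that NF-kB was bound.

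In BR-shCON cells the order by mean FPKM was TNIP1, NFKBIA, RELA, NFKB2, TNIP2, NFKB1, TNFAIP3, REL, RELB and TNIP3, from 147 ± 7.42 FPKM for TNIP1 to 1.86 ± 0.359 FPKM for TNIP3 (SD, n = 3). Among neighbours in that order NFKB2 overlapped with TNIP2 and REL with RELB. In BR-shSPANXB1 cells NFKB2 overlapped with RELA instead, and RELB lay above REL. The inhibitors TNIP1 and NFKBIA were thus the most abundant of the family in both groups and the inhibitor TNIP3 the least.

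After SPANXB1 knockdown NFKB2 rose, and TNIP3 and NFKB1 fell. The other 7 genes did not pass edgeR's quasi-likelihood test at an adjusted p under 0.05 (Benjamini-Hochberg over the 11439 genes that reached 1 FPKM on average). The share called was 3 of 10 members, against 13.8% of all tested genes, with 1 higher against 6.82% and 2 lower against 6.98%. The FPKM values of the 2 groups did not overlap in 5 of 10 members, against 28.6% of all tested genes. The 10 genes were chosen with earlier results of these data known, so these shares are a description only. The calls above come from an unpaired fit. In an alternative, the replicate numbers were taken to pair the samples. In the paired fit, which has these numbers as a block, TNIP1 and NFKBIA rose as well, which made 3 higher and 2 lower, against 25.7% of all tested genes (12.7% higher and 13.0% lower). By the criteria of the study, which also ask for a change beyond 0.59 on the log2 scale in either direction and more than 1 FPKM in the controls, TNIP3 alone of the 10 genes passed, against 0.621% of all tested genes. The control threshold reads the group where TNIP3 was higher, and its mean after knockdown was 0.93 FPKM. The median log2 fold change of the 10 was -0.0078, beside 0.0002 over all tested genes. The cells were measured in bulk, so fewer cells with a transcript and less of it per cell cannot be told apart.

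Among the subunits, NFKB2 encodes p100, the precursor that holds RELB in the cytoplasm and is trimmed to the subunit p52 in the non-canonical pathway. Its FPKM was 32.86, 33.66 and 30.48 in control samples 1 to 3 and 40.37, 37.55 and 36.65 in knockdown samples 1 to 3, the order kept below. Every knockdown sample lay above every control sample. The log2 fold change was 0.22 (standard error 0.05, 95% interval 0.13 to 0.32, edgeR's adjusted p = 0.00137), a rise of 16.8%. NFKB2 (Entrez gene 4791) spans 102394110 to 102402529 on chromosome 10 (GRCh38). NFKB2 was called in 13 of 13 alternatives, with adjusted p up to 0.0246.

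NFKB1 encodes p105, which is processed to p50, the usual partner of RELA. Its FPKM was 25.55, 26.71 and 26.91 in the controls and 24.84, 23.41 and 24.90 after knockdown, the highest knockdown sample lying just under the lowest control sample. The log2 fold change was -0.14 (standard error 0.04, 95% interval -0.23 to -0.05, adjusted p = 0.0373 from the same edgeR test), so its level fell by 9.07%. NFKB1 (Entrez gene 4790) spans 102501329 to 102617302 on chromosome 4. Its counts were 1541 to 1619 per control sample and 1402 to 1479 per knockdown sample. The call of NFKB1 was lost without BR-shCON replicate 2 (adjusted p = 0.117) or 3 (0.0589), without BR-shSPANXB1 replicate 1 (0.0595) or 2 (0.187), with DESeq2 (0.0886) and with limma on log2 FPKM (0.165 at either pseudocount). In the paired fit its adjusted p was 0.00233 (edgeR).

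RELA, the main activating subunit of the canonical pathway, was at 41.85, 42.79 and 40.87 FPKM in the controls and 41.02, 39.33 and 41.24 FPKM after knockdown. It (Entrez gene 5970) spans 65653596 to 65663094 on chromosome 11. The groups overlapped, and the 95% interval of its log2 fold change was -0.15 to 0.03 (adjusted p = 0.422 from the edgeR test). REL, the activating subunit best known from lymphocytes, was at 9.50, 9.63 and 10.59 against 10.24, 10.00 and 10.63 FPKM. REL (Entrez gene 5966) spans 60881521 to 60931610 on chromosome 2. Its groups overlapped too, and its interval was -0.05 to 0.14 (adjusted p = 0.595 from the edgeR test).

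RELB, the activating partner of p52 in the non-canonical pathway, had the widest spread of the subunits in the controls and the narrowest after knockdown. It was at 11.49, 9.92 and 7.99 FPKM in the controls and at 11.16, 11.08 and 10.97 after knockdown, a coefficient of variation of 17.9% in the controls and 0.862% in the knockdown. The control samples lay on both sides of the knockdown samples. RELB (Entrez gene 5971) spans 45001430 to 45038198 on chromosome 19. The log2 fold change was 0.16 (95% interval -0.02 to 0.35, adjusted p = 0.262 from the edgeR test). It was 0.29 without BR-shCON replicate 1 (adjusted p = 0.0345) and 0.04 without BR-shCON replicate 3 (adjusted p = 0.831), so its size and its call turned on which control sample was left out.

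The make-up of the subunit pool can be read within each sample, where library scaling cancels. NFKB2 made up 27.1%, 27.4% and 26.1% of the summed FPKM of the 5 subunits in the controls and 31.6%, 30.9% and 29.5% after knockdown. NFKB1 made up 21.1%, 21.8% and 23.0% and then 19.5%, 19.3% and 20.02%. RELA, the largest share in the controls, went from 34.8% ± 0.243 to 32.6% ± 0.526 (SD, n = 3), while the sum itself was 120.3 ± 3.06 and 124.5 ± 3.13 FPKM. The NFKB2 share was thus higher, and the NFKB1 and RELA shares lower, in every knockdown sample than in every control. Shares of one sum are tied, so a higher NFKB2 share lowers the others. The RELA FPKM values themselves overlapped between the groups. The FPKM ratio of NFKB2 to NFKB1 was 1.29, 1.26 and 1.13 in the controls and 1.63, 1.60 and 1.47 after knockdown, without overlap, a difference of 0.35 on the log2(FPKM + 0.1) scale. An unpaired two-sided exact permutation test gave p = 0.1, the smallest that 3 samples against 3 allow, and 6 such ratios were compared. With samples paired by replicate number, an exact test that flips the sign of each pair's difference gave p = 0.25. That is the smallest p that 3 pairs allow in this test. The ratios of RELB to RELA (0.275, 0.232 and 0.196 against 0.272, 0.282 and 0.266) and of REL to RELA (0.227, 0.225 and 0.259 against 0.250, 0.254 and 0.258) overlapped between the groups (exact permutation p = 0.3 and 0.4).

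Of the inhibitors, NFKBIA encodes the IkB protein that is degraded first when the pathway is switched on and is then made anew as an NF-kB target. It was at 74.87, 73.86 and 69.77 FPKM in the controls and 86.07, 76.21 and 75.70 after knockdown. NFKBIA (Entrez gene 4792) spans 35401511 to 35404749 on chromosome 14. The groups did not overlap, although the gap between them was small beside the distance of BR-shSPANXB1 replicate 1 from the other knockdown samples. The log2 fold change was 0.10 (standard error 0.05, 95% interval 0.0028 to 0.21, adjusted p = 0.172 from the edgeR test), and 0.04 without BR-shSPANXB1 replicate 1. NFKBIA passed edgeR's test in the paired fit (adjusted p = 0.0211). Set against RELA, the subunit it retains, the ratio was 1.79, 1.73 and 1.71 in the controls and 2.10, 1.94 and 1.84 in the knockdown samples (0.17 higher on the log2(FPKM + 0.1) scale, exact permutation p = 0.1).

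TNFAIP3 removes activating ubiquitin chains from signaling adaptors and is a brake on the pathway. It was at 19.67, 17.48 and 18.20 FPKM in the controls and at 17.98, 17.42 and 16.99 after knockdown. TNFAIP3 (Entrez gene 7128) spans 137867188 to 137883312 on chromosome 6. The groups overlapped, and the 95% interval of the log2 fold change was -0.19 to 0.0094 (adjusted p = 0.238 from the edgeR test). NFKBIA and TNFAIP3, both known targets of NF-kB, had log2 fold changes of opposite sign, 0.10 and -0.09, neither past the test.

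The 3 TNIP genes encode proteins that bind ubiquitin chains and bring A20 to its targets. TNIP1, the most abundant, was at 146.63, 153.95 and 139.12 FPKM in the controls and 159.87, 165.18 and 160.01 after knockdown, with no overlap. It (Entrez gene 10318) spans 151029945 to 151093577 on chromosome 5. Its log2 fold change was 0.11 (standard error 0.04, 95% interval 0.03 to 0.19, adjusted p = 0.0703 from the edgeR test), and it passed in the paired fit (adjusted p = 5.0e-04). Without BR-shCON replicate 3, its lowest control sample, the change was 0.07. TNIP2 was at 31.69, 31.69 and 28.89 against 28.82, 29.73 and 30.10 FPKM (Entrez gene 79155, chromosome 4 from 2741648 to 2756376), with overlap and an interval of -0.18 to 0.04 (adjusted p = 0.426 from the edgeR test).

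TNIP3 (Entrez gene 79931, chromosome 4 from 121131408 to 121227466) was at 1.80, 1.54 and 2.25 FPKM in the controls and at 0.70, 1.02 and 1.07 FPKM after knockdown. These values rest on 63, 54 and 79 estimated counts in the controls and 24, 36 and 37 in the knockdown samples, the fewest of any member. All knockdown samples lay below all controls. The mean was 1.86 FPKM in the controls and 0.93 FPKM after knockdown. TNIP3 thus reached the filter of 1 FPKM on average through the controls. Without a filter TNIP3 was also called (edgeR adjusted p = 4.7e-06). Its level fell by 50.7% (95% interval of the log2 fold change -1.42 to -0.62, adjusted p = 5.64e-04 from the edgeR test). TNIP3 was called in 12 of 12 alternatives that tested it (adjusted p up to 0.015), and the log2 fold change ran from -1.14 to -0.85 without single samples. On the log2(FPKM + 1) scale, which shrinks the change of low genes, it was -0.57, under the fold threshold of the study. The ratio of TNIP3 to TNIP1 was 0.0123, 0.0100 and 0.0162 in the controls and 0.00438, 0.00618 and 0.00669 after knockdown, lower by 1.08 on the log2(FPKM + 0.1) scale. The ratio to TNIP2 was lower by 0.88 (exact permutation p = 0.1 for each). Relative to either paralog, TNIP3 was thus lower in every knockdown sample than in every control.

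**Figure D1:**
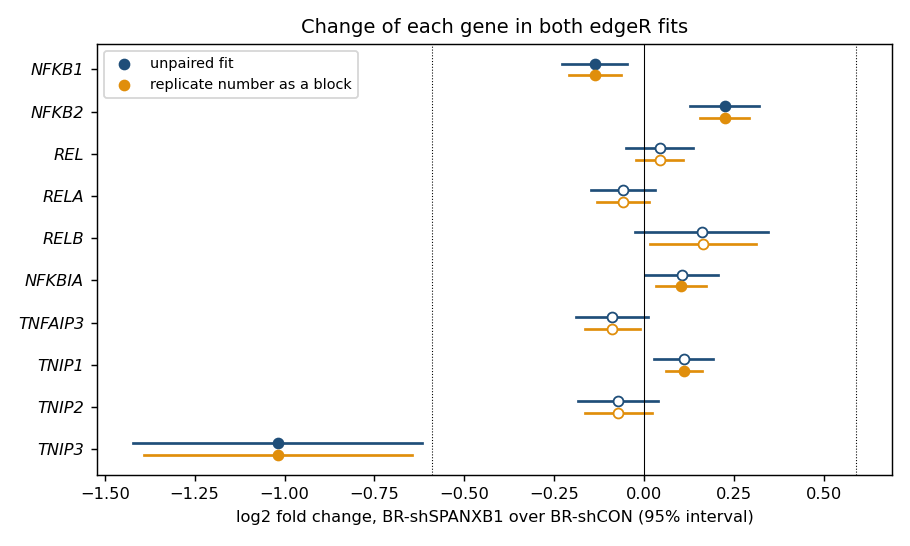
Log2 fold change after knockdown for each gene from edgeR, without (blue) and with (orange) the replicate block; bars are 95% intervals, not adjusted for the number of genes, filled points passed an adjusted p under 0.05, and dotted lines mark 0.59 in either direction. NFKB2, NFKB1 and TNIP3 are filled in both fits, NFKBIA and TNIP1 only with the block.

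The members did not vary as one unit between samples of a group. BR-shCON replicate 3 was the lowest control for 6 of 10 members, NFKB2, RELA, RELB, NFKBIA, TNIP1 and TNIP2, and the highest control for NFKB1, REL and TNIP3. BR-shSPANXB1 replicate 1 was the highest knockdown sample for NFKB2, RELB, NFKBIA and TNFAIP3, and BR-shSPANXB1 replicate 3 the lowest for the same 4 genes. In both groups NFKB2, RELB and NFKBIA were thus lowest in replicate 3. Exons of REL, RELA and TNFAIP3 overlap those of AC010733.2, AP001362.2 and AL357060.1 in GENCODE v29, and the library protocol names no step that keeps strand, so reads of these pairs could not be separated. The estimated counts of REL were not whole in 6 samples and those of TNIP1 in 3.

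The wider pathway was read from 84 other genes in 7 lists, of which 76 were tested. Of these 12 were higher and 6 lower, 23.7% called against 13.8% of all tested genes (6.82% higher and 6.98% lower). In the paired fit 20 were higher and 7 lower, against 12.7% and 13.0% of all tested genes. The lower calls were thus near the share of all tested genes in the main fit and under it in the paired fit. The groups did not overlap in 27 of the 76 (35.5%), against 28.6% of all tested genes. The lists were written with earlier results of these data known, so the shares describe them and test nothing. Among the other IkB proteins 2 of 5 rose and none fell, against 6.82% higher and 6.98% lower of all tested genes. NFKBIZ, a nuclear IkB that co-activates secondary NF-kB targets, was at 12.88, 12.91 and 12.47 FPKM in the controls and 17.56, 15.52 and 16.78 after knockdown (log2 fold change 0.37, adjusted p = 2.0e-05 from edgeR). NFKBID, a nuclear IkB of low level, was at 1.83, 1.88 and 1.72 and then 3.25, 2.07 and 2.79 FPKM (0.52, adjusted p = 0.0332 from edgeR). The call of NFKBID was kept in 1 of 6 fits without a single sample, with adjusted p up to 0.225. The remaining 3, NFKBIB, NFKBIE and BCL3, did not pass. The median log2 fold change of the 5 was 0.18.

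Together the lists of IKK genes, ligands, receptors, adaptors, and ubiquitin enzymes with A20 partners held 47 tested genes. Of these 5 were called (10.6%), near the 13.8% of all tested genes. Of 10 genes of the IKK complex and its kinases 1 rose, MAP3K14, which encodes the kinase NIK that triggers processing of p100 (0.22, adjusted p = 0.0303 from edgeR). Its groups overlapped and its call was kept in 2 of 6 fits without a single sample, with adjusted p up to 0.196. CHUK, IKBKB and IKBKG, the core of the IKK complex, did not pass. None of 3 tested ligands was called by edgeR, and the other 5 of the 8, TNF among them, were below the level tested. Of 9 tested receptors 1 fell, IL1RAP, the shared chain of IL-1 family receptors (-0.21, adjusted p = 0.0163 from edgeR, up to 0.0699 without a single sample). Of 13 adaptors 1 rose, MALT1, the paracaspase of the CARD-BCL10-MALT1 complex (0.25, adjusted p = 8.8e-04 from edgeR); its FPKM values overlapped between groups, and limma on log2 FPKM did not call it (adjusted p = 0.32). Of 12 ubiquitin enzymes and A20 partners 1 rose and 1 fell. BIRC2, a ubiquitin ligase that keeps NIK low, changed by 0.19 (adjusted p = 0.0062 from edgeR), and RNF11, a partner of A20, by -0.19 (adjusted p = 0.0102). Without a single sample the adjusted p reached 0.0572 for BIRC2 and 0.0988 for RNF11.

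Textbook targets of NF-kB moved in both directions. Of 24 tested, 7 were higher and 4 lower, 45.8% called against 13.8% of all tested genes (6.82% higher and 6.98% lower), with a median log2 fold change of 0.12; VCAM1 and SELE were not analysed here. TRAF1, an adaptor of TNF receptors, was at 2.85, 2.82 and 3.0 FPKM in the controls and 5.0, 5.02 and 5.36 after knockdown (log2 fold change 0.84, adjusted p = 2.2e-08 from edgeR). IRF1, an interferon-responsive transcription factor that NF-kB also induces, went from 18.58, 20.56 and 18.36 to 26.96, 24.88 and 25.24 FPKM (0.44, adjusted p = 1.3e-06). PTGS2, the inducible cyclooxygenase, fell from 27.18, 26.35 and 25.08 to 21.30, 17.67 and 17.70 FPKM (-0.48, adjusted p = 6.2e-07). In each of these 3 genes the groups did not overlap. The remaining called targets were named after their values were seen. Those that rose were TNFAIP2, a TNF-induced gene (0.28), SOD2, the mitochondrial superoxide dismutase (0.17), the apoptosis inhibitors BIRC3 (0.17) and CFLAR (0.16), and the chemokine CCL5 (0.56). TNFAIP2 and SOD2 were called in 13 of 13 alternatives, BIRC3 in 10 and CFLAR in 8 of 13, and CCL5 in 6 of 12. Those that fell were the neutrophil chemokine CXCL8 (-0.32), the anti-apoptotic BCL2A1 (-0.24) and the surface protein CD83 (-0.33). CXCL8 was called in 13 of 13 alternatives. The lower call was lost without BR-shCON replicate 3 for BCL2A1 and CD83 (adjusted p = 0.0678 and 0.0505), and for BCL2A1 also without BR-shSPANXB1 replicate 2 (0.12) and with DESeq2. With single samples left out, 5 to 8 targets were higher and 2 to 4 lower, the 2 being without BR-shCON replicate 3, and in the paired fit 12 were higher and 4 lower, against 12.7% and 13.0% of all tested genes. DESeq2 gave 5 higher and 3 lower.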

How the data were processed

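RNA-seq of 3 BR-shCON and 3 BR-shSPANXB1 samples was grouped by the titles in the labels; the extraction protocol there names the BR and MDA-MB-231 lines without the knockdown. The members and gene lists were chosen with earlier results of these data known. The authors deposited estimated counts per gene, not normalized, and FPKM values, scaled by them for transcript length and mapped fragments, in 1 table. HISAT2 2.0.4, Bowtie2 2.2.5 and build GRCh38.p12 appear in the processing notes of the submitters. A counting program was not given in the sources used here, and 6 columns of TPM were not used. Estimated counts were rounded (14.5% were not whole), scaled by TMM and tested with edgeR 4.0.16 (robust quasi-likelihood fit) in R 4.3.3 over the 11439 genes that reached 1 FPKM on average; the procedure was tested on simulated data. Single values were compared by two-sided exact permutation. The total was 16294457 to 16666161 counts per sample, so precision rests mainly on 3 samples per group. The submitters' design text calls the samples independent, and the methods of the study say in general that biological replicates came from separate cell batches. Neither says so of these libraries in particular, and p-values measure the spread between these samples. In edgeR the spread of each gene is also drawn toward that of other genes. Samples of a group differed beyond sampling noise (chi-square 1.98 to 3.03 per degree of freedom). Deviations of same-numbered samples had correlations of 0.113, 0.150 and 0.159 across genes, and all exceed 0.1. Those of differently numbered samples ran from -0.105 to -0.031. Deviations are taken from the group mean, so these correlations are tied to each other. Same-numbered samples were treated as pairs only in the alternative with the replicate number as a block. The main edgeR test and the exact permutations given with it were unpaired. What a number shares is not stated. Alternatives were that block, DESeq2 1.42.0 or its size factors, limma 3.58.1 on log2 of FPKM plus 0.1 or 1, no filter, a minimum of 5 FPKM on average, and each sample left out. Named genes were all members, SPANXB1 and up to 3 called genes per list with the smallest adjusted p; other genes were added after their values were seen: the remaining called targets, uncalled IkB and IKK genes, and markers. Gene positions come from GENCODE v29 (GRCh38), sequences from RefSeq.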

Additional observations from a re-analysis of the deposited data

How the results depend on the processing

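All 10 members kept the sign of their change in every alternative, and NFKB2 and TNIP3 kept their calls in each alternative that tested them. With the replicate number as a block 3 members were higher, by the added calls of TNIP1 and NFKBIA, and 20 pathway genes were higher; no other member call changed with the block. With DESeq2, limma on log2(FPKM + 0.1) and limma on log2(FPKM + 1) 1 member was lower, since the call of NFKB1 was lost. A minimum of 5 FPKM on average, which leaves TNIP3 out, gave 1 lower member. Limma gave 6 higher pathway genes at either pseudocount, and over all tested genes it called 516 higher and 350 lower with 0.1 and 522 higher and 351 lower with 1, beside 780 and 799 in the edgeR test. Leaving out single samples gave 1 to 2 members higher, 1 to 2 lower, 8 to 12 pathway genes higher and 3 to 6 lower, the 3 being without BR-shCON replicate 3 or BR-shSPANXB1 replicate 2. The members' second higher call, without BR-shCON replicate 1, was RELB. Of the 18 pathway genes called, 8 were called in all 6 fits without a sample. All 6 within-sample ratios kept their sign under each alternative run. Paired by replicate number, the exact sign-flip p was 0.25, the smallest that 3 pairs allow, for NFKB2 over NFKB1, NFKBIA over RELA and both TNIP3 ratios. It was 0.5 for RELB over RELA and for REL over RELA. The causes were not tested, apart from the filter. TNIP3 rests on few counts and NFKBID is of low level, and the part of sequencing depth in their results was not tested. With 3 samples against 3, no exact permutation p can fall under 0.1.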
